A study of Mus musculus with 8 samples.

Results

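Ephrins and Eph receptors were followed in single-nucleus RNA-seq of the dorsal telencephalon, the part of the embryonic forebrain that gives rise to the cerebral cortex. Of the 14166 genes in the deposited tables, 10 were chosen by symbol: the receptors Epha3, Epha4, Epha5, Epha6, Epha7, Ephb1 and Ephb2 and the ligands Efna5, Efnb2 and Efnb3. All 10 were present, and all 10 passed the filter on low counts in each of the 8 comparisons of genotype, so no member was lost. The samples were 4 wildtype and 4 Pantr2 knockout (Pantr2-/-) dorsal telencephalons of mouse embryos at stage E15.5, all of strain C57BL/6J. Pantr2 is a long noncoding RNA gene. The labels give neither the design of its deleted allele nor the sex of the embryos, and they do not say whether a sample held tissue of a single embryo or whether the 4 samples of a group came from separate litters. The p-values below therefore measure the spread between these samples, which may in part be technical.

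Eph receptors are receptor tyrosine kinases that bind ephrins on the surface of neighbouring cells, and both the cell with the receptor and the cell with the ephrin can respond. Ephrins of the A class are held to the membrane by a lipid anchor and those of the B class span it. Receptors of each class mainly bind ephrins of the same class, and Epha4 is known to bind both. In the developing cortex the family is known for steering axons and migrating neurons and for the ordered connections between thalamus and cortex.

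The 8 samples held 67319 nuclei with 20446698 to 34083796 unique molecular identifiers (UMIs, which count RNA molecules) per sample. Of 66806 distinct barcode sequences, 507 occurred in 2 libraries and 3 in 3 libraries. The nuclei carried the authors' deposited cluster numbers 1 to 7. By markers, cluster 1 was upper-layer-like (Cux1, Cux2, Pou3f1), cluster 2 subcerebral deep-layer-like (Bcl11b, Fezf2, Ldb2, Sox5), cluster 3 corticothalamic-like (Tle4, Foxp2, Tbr1), cluster 4 apical progenitor-like (Pax6, Hes5, Vim) and cluster 5 intermediate progenitor-like (Eomes, Neurog2, Btg2). Clusters 6, led by Tafa1, Tafa2 and Nell1, and 7, led by Fam163a, Gm36560 and Gm32647, stayed unnamed. Other listed markers peaked elsewhere. Rorb of the upper-layer list was highest in cluster 2 and Crym of the subcerebral list in cluster 7. Of the interneuron markers, Gad2 and Dlx6os1 were highest in cluster 4 and Sst in cluster 6. Cluster 5 was highest for Reln, Nxph4 and Ebf1, from the Cajal-Retzius cell, subplate and striatal or subpallial lists. The clusters thus carried neuron and progenitor markers of the labelled dorsal telencephalon, with some markers of other cell types. Levels are given as CPM, UMIs scaled to the same total in every sample or in every sample's nuclei of a cluster. They are compared between samples and clusters but not between genes, because they are not scaled by gene length.

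Over all nuclei, 4 of the 10 members differed between the genotypes: Epha6, Epha7 and Efna5 fell in the knockout and Epha4 rose. The RefSeq promoters of these 4 genes (GRCm38.p6, 250 bases before to 50 after the gene start, written 5′ to 3′ on the gene's strand) are shown because these are the members called in that comparison. Capitals mark matches, on either strand, to any of 8 short motifs: the GC box GGGCGG, the TATA box TATAAA, the CCAAT box CCAAT, the E-boxes CAGCTG and also CAGATG, the nuclear receptor half-site AGGTCA, the octamer ATGCAAAT and the homeobox site TAATTA.
Epha6, chr16:60605482-60605781, minus strand: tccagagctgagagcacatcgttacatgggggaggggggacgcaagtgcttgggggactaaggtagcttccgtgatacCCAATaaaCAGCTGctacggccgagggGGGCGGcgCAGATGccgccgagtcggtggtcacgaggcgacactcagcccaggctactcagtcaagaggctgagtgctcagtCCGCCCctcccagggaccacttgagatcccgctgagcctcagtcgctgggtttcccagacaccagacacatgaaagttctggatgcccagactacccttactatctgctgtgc
Efna5, chr17:62881268-62881567, minus strand: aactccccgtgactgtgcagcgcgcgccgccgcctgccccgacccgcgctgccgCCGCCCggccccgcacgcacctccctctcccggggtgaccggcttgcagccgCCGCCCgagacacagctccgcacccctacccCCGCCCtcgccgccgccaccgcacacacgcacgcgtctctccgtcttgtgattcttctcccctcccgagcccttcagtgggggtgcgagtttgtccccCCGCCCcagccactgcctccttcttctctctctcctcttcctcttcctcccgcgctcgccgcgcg
Epha7, chr4:28812881-28813180, plus strand: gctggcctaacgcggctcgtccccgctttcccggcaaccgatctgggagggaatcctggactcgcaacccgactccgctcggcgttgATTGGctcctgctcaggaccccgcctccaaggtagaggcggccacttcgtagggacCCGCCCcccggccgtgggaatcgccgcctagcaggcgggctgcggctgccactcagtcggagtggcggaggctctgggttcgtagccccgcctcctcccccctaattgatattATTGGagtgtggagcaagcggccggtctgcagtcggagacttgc
Epha4, chr1:77515039-77515338, minus strand: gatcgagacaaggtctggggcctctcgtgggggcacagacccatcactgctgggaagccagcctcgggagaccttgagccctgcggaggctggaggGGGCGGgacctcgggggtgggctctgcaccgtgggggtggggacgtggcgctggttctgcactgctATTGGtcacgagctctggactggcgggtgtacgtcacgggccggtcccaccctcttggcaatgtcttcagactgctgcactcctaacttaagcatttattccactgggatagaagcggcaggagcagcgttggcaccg

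The Epha6 window held 2 GC boxes, 1 CCAAT box and 1 of each E-box, and the Efna5 window held 4 GC boxes and no other motif. The Epha7 window held 1 GC box and 2 CCAAT boxes, and the Epha4 window 1 of each. Of 32851 promoter windows of this length, 35.7% held a GC box, 37.4% a CCAAT box, 16.3% the E-box CAGCTG and 17.2% the E-box CAGATG. None of these motifs was thus rare taken singly. The share of windows with several matches, as in Epha6 and Efna5, was not computed. The half-site (16.3% of windows), the TATA box (13.6%), the homeobox site (5.29%) and the octamer (1.74%) were not found in these 4 windows. Base composition was high in G and C in all 4, at 60.3% for Epha6, 73.3% for Efna5, 67.0% for Epha7 and 64.0% for Epha4, against a median of 52.7% over all windows. Of the 10 members, 9 had a promoter window. A match describes letters only, and no binding was measured.

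The first question was where in the tissue each member was expressed. The heat map of wildtype means shows that no 2 members shared the same order of clusters, and these levels are a description with no test, because the clusters were made from the same nuclei and genes. In wildtype, the A-class receptors Epha3 and Epha5, which bind ephrin-A ligands in axon mapping, were both high in clusters 5, 1 and 6. Epha3 lay at 2864 CPM ± 81.3 (SD, n = 4) in cluster 5, 2518 ± 336 in cluster 6 and 2299 ± 81.4 in cluster 1, a group whose neighbouring values overlapped between samples, and no other cluster exceeded 822 ± 65.1 (cluster 7). Epha5 lay at 2692 ± 212, 2614 ± 234 and 2567 ± 149 CPM in clusters 5, 1 and 6, which did not differ beyond their SD, and reached its lowest level, 978 ± 62.5, in cluster 7.

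**Figure D1:**
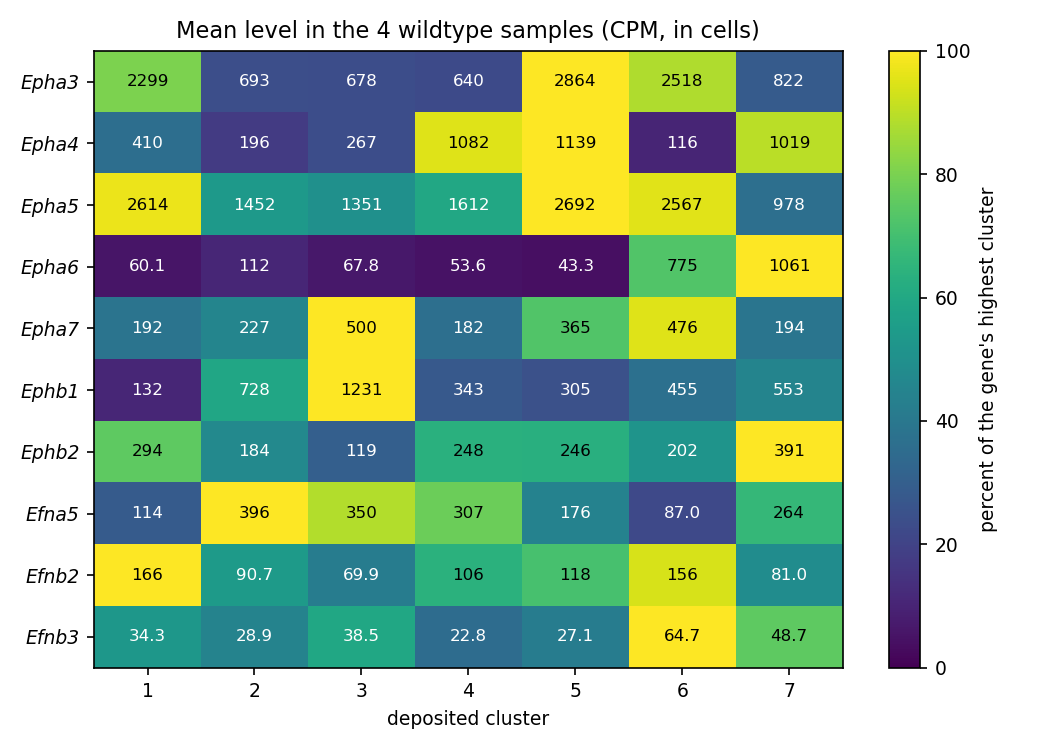
Mean level in the 4 wildtype samples (CPM, printed in each cell) for the 10 members in rows and the 7 deposited clusters in columns. Colour gives the level as a percent of the gene's own highest cluster, so colours compare clusters within a gene. Epha6 stands out in clusters 6 and 7, Ephb1 in cluster 3, and Epha4 in clusters 4, 5 and 7.

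Epha4, the receptor that binds both classes and is known from the guidance of corticospinal axons, had another order. Its wildtype levels in clusters 5, 4 and 7 were 1139 CPM ± 93.9, 1082 ± 55.9 and 1019 ± 119, 3 values whose sample ranges overlapped. The next cluster, cluster 1, lay at 410 ± 22.7, and from there each step down (cluster 3, 267 ± 17.0; cluster 2, 196 ± 15.0; cluster 6, 116 ± 5.63) separated the samples completely. The highest and lowest clusters thus differed by 9.81-fold.

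Epha6, an A-class receptor, had the widest spread over clusters of the 10 members, 24.5-fold. It lay at 1061 CPM ± 103 in cluster 7 and 775 ± 107 in cluster 6, with no overlap between the 2 clusters' samples, and at 112 ± 13.9 in cluster 2. The other 4 clusters lay between 43.3 ± 6.37 (cluster 5) and 67.8 ± 10.7 (cluster 3), and neighbours in their order overlapped.

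Epha7, a receptor with known truncated forms that lack the kinase, was highest in the corticothalamic-like cluster 3 (500 CPM ± 40.2) and cluster 6 (476 ± 90.3), which overlapped, followed by cluster 5 (365 ± 10.8). Its other 4 clusters lay between 182 ± 14.8 and 227 ± 46.5 and overlapped from neighbour to neighbour. Ephb1, a B-class receptor known for routing retinal axons at the optic chiasm, peaked in cluster 3 as well, at 1231 CPM ± 54.8, with no overlap between that cluster, cluster 2 (728 ± 43.3), cluster 7 (553 ± 51.3) and cluster 6 (455 ± 35.8), and was lowest in cluster 1 (132 ± 17.2). Ephb2, a B-class receptor known at excitatory synapses, had its highest level in cluster 7 (391 ± 33.0) and cluster 1 (294 ± 29.6) and its lowest in cluster 3 (119 ± 7.11).

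Among the ligands, Efna5, an A-class ephrin known for shaping thalamocortical connections, was highest in the deep-layer-like clusters 2 (396 CPM ± 16.6) and 3 (350 ± 43.1). Clusters 4 (307 ± 68.7) and 7 (264 ± 33.2) followed, with overlap between neighbours, and clusters 1 (114 ± 41.6) and 6 (87.0 ± 8.40) were lowest. Efnb2, a B-class ephrin known from blood vessel growth, was highest in clusters 1 (166 ± 22.3) and 6 (156 ± 29.1) and lowest in cluster 3 (69.9 ± 4.12). Efnb3, a B-class ephrin known as a midline barrier to corticospinal axons, peaked in clusters 6 (64.7 ± 10.6) and 7 (48.7 ± 6.51), as Epha6 did in the other order, and was lowest in cluster 4 (22.8 ± 5.17). The highest level over the lowest was 4.55-fold for Efna5, 2.37-fold for Efnb2 and 2.84-fold for Efnb3.

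Over the 28 wildtype profiles (7 clusters in 4 samples), Epha3 and Epha5 were the most alike pair of members (Pearson r = 0.85 of log2 levels), followed by Epha5 and Efnb2 (0.83) and Epha6 and Efnb3 (0.80). The lowest values were those of Efna5 with Epha3 (r = -0.85) and with Efnb2 (-0.83) and of Ephb1 with Efnb2 (-0.79). These values describe profiles that share libraries and depth. Among 8951 genes, the 2 most like a member were Slit3 (0.970) and Rit2 (0.969) for Epha6, Pard3 (0.964) and Cachd1 (0.935) for Epha4, Brinp1 (0.952) and Grik3 (0.943) for Ephb1, and Sphkap (0.940) and Shank3 (0.901) for Efnb3. For Epha3 they were St8sia4 (0.931) and Sorbs2 (0.924), and for Epha5 Sorl1 (0.920) and Ndst3 (0.913). Efna5 was most like Agbl1 (0.909) and Fbln1 (0.847), Efnb2 like Cux2 (0.882) and Limch1 (0.876), and Epha7, with the lowest values of the 10, like Snrpn (0.860) and Efcab6 (0.823).

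The second question was which members differ between knockout and wildtype, first over all nuclei. In the edgeR fit of 13926 genes, 5.26% were called at an adjusted p under 0.05 (1.67% higher and 3.58% lower in the knockout), and 4 of 10 members were called, 1 higher and 3 lower. The genotypes did not overlap for the same 4 members, beside 11.3% of all genes. The median log2 fold change was -0.05 over the members and 0.00 over all genes tested. Sums over all nuclei mix changes within nuclei with changes in the share of each cluster. Values with the cluster shares held fixed are therefore given with the members. Cluster 6 made up 10.4%, 9.42%, 12.7% and 9.37% of wildtype nuclei and 8.11%, 5.70%, 5.28% and 4.31% of knockout nuclei, and it is a cluster with a high Epha6 and a low Epha4 level. Cluster 4, where Epha4 is high, made up 20.2%, 13.7%, 9.69% and 12.9% of wildtype and 25.5%, 19.6%, 15.2% and 13.1% of knockout nuclei. Markers also moved with genotype over all nuclei. The sum of 4 upper-layer genes (Cux1, Cux2, Pou3f1, Rorb) was 860 to 1129 CPM in wildtype and 662 to 801 in the knockout, and the 5 subcerebral markers summed to 3548 to 4132 and 4462 to 5143. Sox5 made up most of the subcerebral sum here and in the clusters below. Over all nuclei it went from 2533 CPM ± 188 to 3458 ± 191 and was the only 1 of the 5 called in edgeR. At far lower levels, 3 of 5 microglia markers summed to 4.94 to 6.57 and 3.47 to 4.40 CPM and the 4 oligodendrocyte precursor markers to 4.54 to 6.99 and 1.55 to 2.11. The part of these marker shifts in the members' differences was not tested.

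Epha6 lay at 230, 208, 272 and 234 CPM in the wildtype samples and at 114, 62.6, 75.8 and 99.3 in the knockout samples. Every knockout sample was below every wildtype sample, and the edgeR log2 fold change was -1.42 ± 0.17 (SE, adjusted p = 0.00143), a knockout level of 0.374 times wildtype. Its adjusted p ranged from 1.87e-13 to 0.00982 over 13 alternative fits. When the 7 cluster levels of each sample were averaged with the same fixed shares, an alternative added after the data were seen, the log2 ratio of the group means was -1.18, compared with -1.42 in the plain sums (exact permutation p = 0.0286, the smallest that 4 against 4 samples allow).

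On GRCm38, Epha6 spans chr16:59653483-60605531 on the minus strand, and its 3′ end overlaps 4930547E14Rik (chr16:59636945-59672999, plus strand). Whether UMIs were counted by strand is not given in the sources used here, so UMIs of the 2 genes in the overlap cannot be told apart. 4930547E14Rik had 306 UMIs in wildtype and 131 in the knockout in all, far fewer than the 1807 Epha6 UMIs of the lowest sample, and also fell (log2 fold change -1.17 ± 0.21, edgeR adjusted p = 0.0126). Within 5 Mb of Epha6, 37 genes were tested and 2 called, 4930547E14Rik and Htr1f, both lower (5.41%). Epha3, its neighbour on chromosome 16 (63543534-63864175), lay at 1395 CPM ± 65.2 in wildtype and 1478 ± 199 in the knockout over all nuclei, with a log2 fold change of 0.10 ± 0.09 (edgeR adjusted p = 0.602). Over all nuclei, 4 of 24 genes were called within 5 Mb of Efna5 (16.7%), 1 of 25 for Epha7 (4.00%) and 2 of 56 for Epha4 (3.57%). In cluster 2 (9.11% of all genes) the counts were 6 of 21 for Efna5 (28.6%) and 5 of 22 for Epha7 (22.7%). For Epha5, Epha4 and Epha6 they were 1 of 13 (7.69%), 2 of 47 (4.26%) and 1 of 27 (3.70%) there. These neighbourhoods are a description and were not tested.

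Efna5 lay at 301, 238, 246 and 242 CPM in wildtype and at 163, 123, 169 and 204 in the knockout. The groups did not overlap, and wildtype replicate 1 stood above the other 3 wildtype samples. The log2 fold change was -0.62 ± 0.14 (edgeR adjusted p = 0.0290). Leaving out a sample ended the call in 6 of 8 cases, with adjusted p up to 0.0858 (without knockout replicate 3), while the fold change stayed between -0.51 and -0.75. The log2 ratio was -0.64 in plain sums and -0.69 with fixed cluster shares (exact permutation p = 0.0286).

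Epha7 lay at 328, 304, 294 and 302 CPM in wildtype and at 260, 250, 213 and 241 in the knockout, again with no overlap. Its log2 fold change was -0.34 ± 0.06 (edgeR adjusted p = 0.0111). Epha4 moved the other way, from 547, 566, 493 and 512 CPM in wildtype to 703, 686, 658 and 602 in the knockout, with all 4 knockout samples above the wildtype samples. Its log2 fold change was 0.34 ± 0.06 (edgeR adjusted p = 0.0105). With fixed cluster shares the log2 ratio of Epha4 moved from 0.32 to 0.16 and that of Epha7 from -0.35 to -0.28, both with an exact permutation p of 0.0286.

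The remaining 6 members did not pass over all nuclei. Epha5 had a log2 fold change of 0.18 ± 0.08 (edgeR adjusted p = 0.241), and with fixed cluster shares its log2 ratio was 0.18 with the smallest exact permutation p of the design, 0.0286. With fixed shares the other 5 had an exact permutation p from 0.114 to 0.971. In the edgeR fit, the log2 fold change of Ephb1 was -0.10 ± 0.08 (adjusted p = 0.589) and that of Ephb2 0.13 ± 0.08 (0.425). Efnb2, at 112 CPM ± 12.3 in wildtype and 111 ± 9.52 in the knockout, had an adjusted p of 0.994 in edgeR. Efnb3 lay at 36.6 ± 3.79 and 30.0 ± 2.70 CPM, and its log2 fold change was -0.28 ± 0.10 (edgeR adjusted p = 0.143, or 0.0179 when replicate numbers were blocked).

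**Figure D2:**
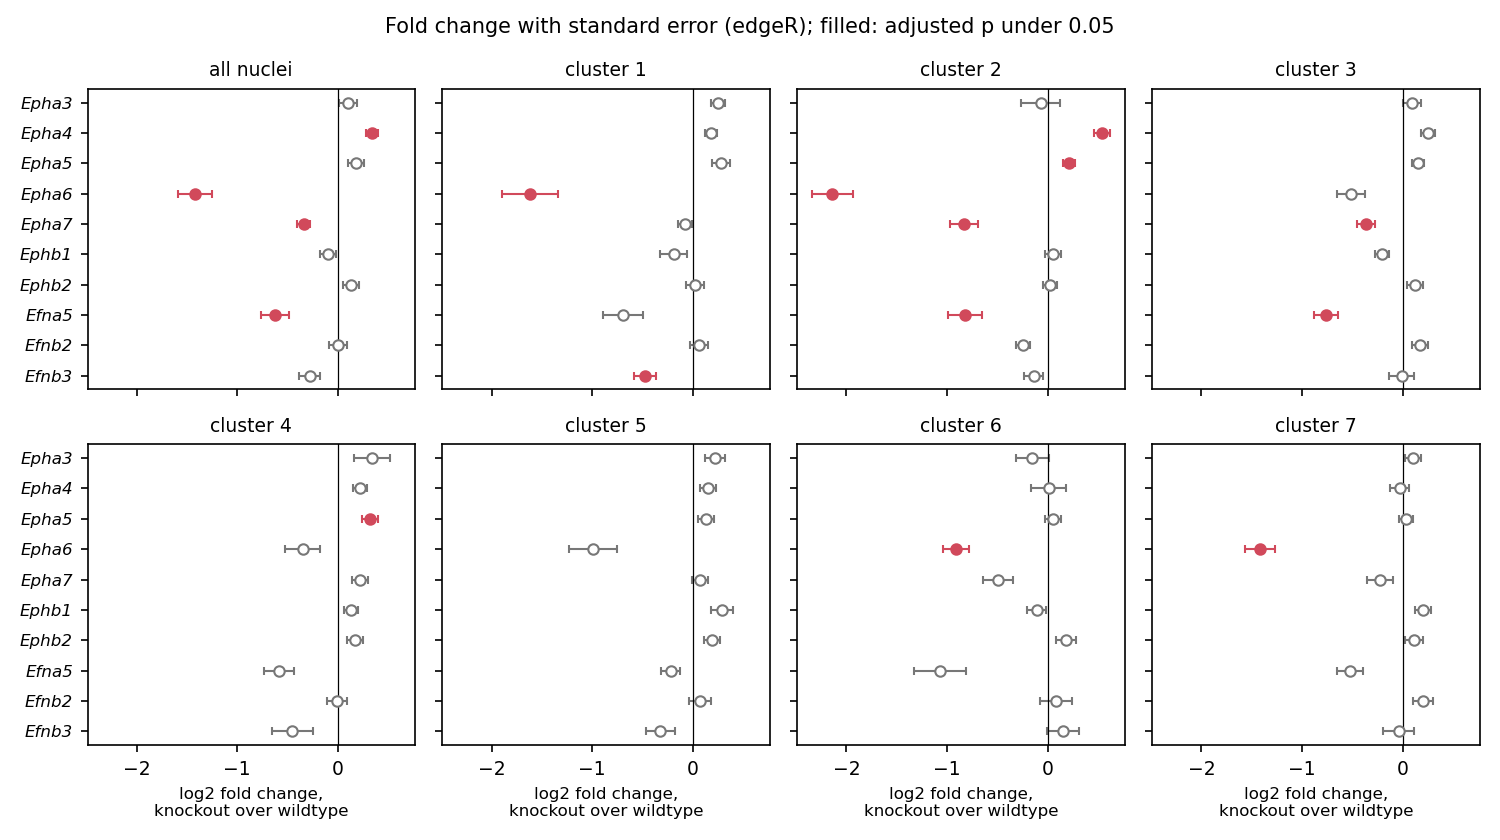
Log2 fold change of knockout over wildtype (x axis, edgeR estimate with its standard error) of the 10 members (y axis), with 1 panel for all nuclei and 1 for each of the 7 clusters; filled points have an adjusted p under 0.05. Epha6 and Efna5 lie left of 0 in all 8 panels, and cluster 2 holds the most filled points, 5.

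Within clusters, 12 of 70 member comparisons were called, 9 lower and 3 higher in the knockout, and 8 of the 12 were called under each of the 13 alternative fits. Of all genes tested, between 0.779% (cluster 6) and 9.11% (cluster 2) were called. The members' share was largest in cluster 2, where 5 of 10 were called. The groups of 4 samples did not overlap in 17 of the 70 comparisons, namely 6 in cluster 2 (14.1% of all genes there), 3 each in clusters 1 (10.3%) and 3 (8.86%), 2 each in clusters 6 (5.92%) and 7 (5.92%), and 1 in cluster 4 (9.76%). Cluster 5 had none (6.17%).

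In the subcerebral deep-layer-like cluster 2, Epha6, Epha7 and Efna5 fell and Epha4 and Epha5 rose (5 of 10 members, background 9.11%, of which 3.92% higher and 5.19% lower). The median log2 fold change was -0.10 over the members and 0.00 over all genes tested there. Epha6 went from 123, 120, 113 and 92.2 CPM in wildtype to 32.8, 14.2, 22.0 and 35.1 in the knockout. The lowest wildtype sample was above every knockout sample, and the log2 fold change of -2.14 ± 0.20 (edgeR adjusted p = 3.08e-05) was the lowest of the 80 member comparisons. Efna5 went from 392, 404, 414 and 375 to 219, 153, 198 and 329 CPM, with knockout replicate 4 nearest to wildtype. Its log2 fold change was -0.82 ± 0.17 (edgeR adjusted p = 0.00657).

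Epha7 in cluster 2 lay at 281, 173, 209 and 244 CPM in wildtype and 133, 133, 99.8 and 144 in the knockout. The groups did not overlap, although the wildtype samples spread widely, and the log2 fold change was -0.83 ± 0.14 (edgeR adjusted p = 0.00190). Epha4 rose from 192, 217, 196 and 181 to 303, 288, 301 and 243 CPM. All knockout samples were above all wildtype samples, with a log2 fold change of 0.54 ± 0.08 (edgeR adjusted p = 0.00104).

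Epha5 in cluster 2 lay at 1432, 1455, 1470 and 1450 CPM in wildtype and 1693, 1789, 1618 and 1602 in the knockout. The groups were apart, but the log2 fold change was small, 0.21 ± 0.06, and the edgeR adjusted p of 0.0489 was lost in 7 of the 8 fits without a sample and with no filter on low counts (0.0190 to 0.133 over the 13 alternatives). Efnb2 also had groups apart in cluster 2, at 83.8 to 96.3 CPM in wildtype and 69.5 to 81.5 in the knockout. Its log2 fold change of -0.24 ± 0.07 did not pass in edgeR (adjusted p = 0.0547, and 0.0402 with the presence of Xist as a covariate). Epha3, Ephb1, Ephb2 and Efnb3 had log2 fold changes between -0.14 and 0.05 there.

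**Figure D3:**
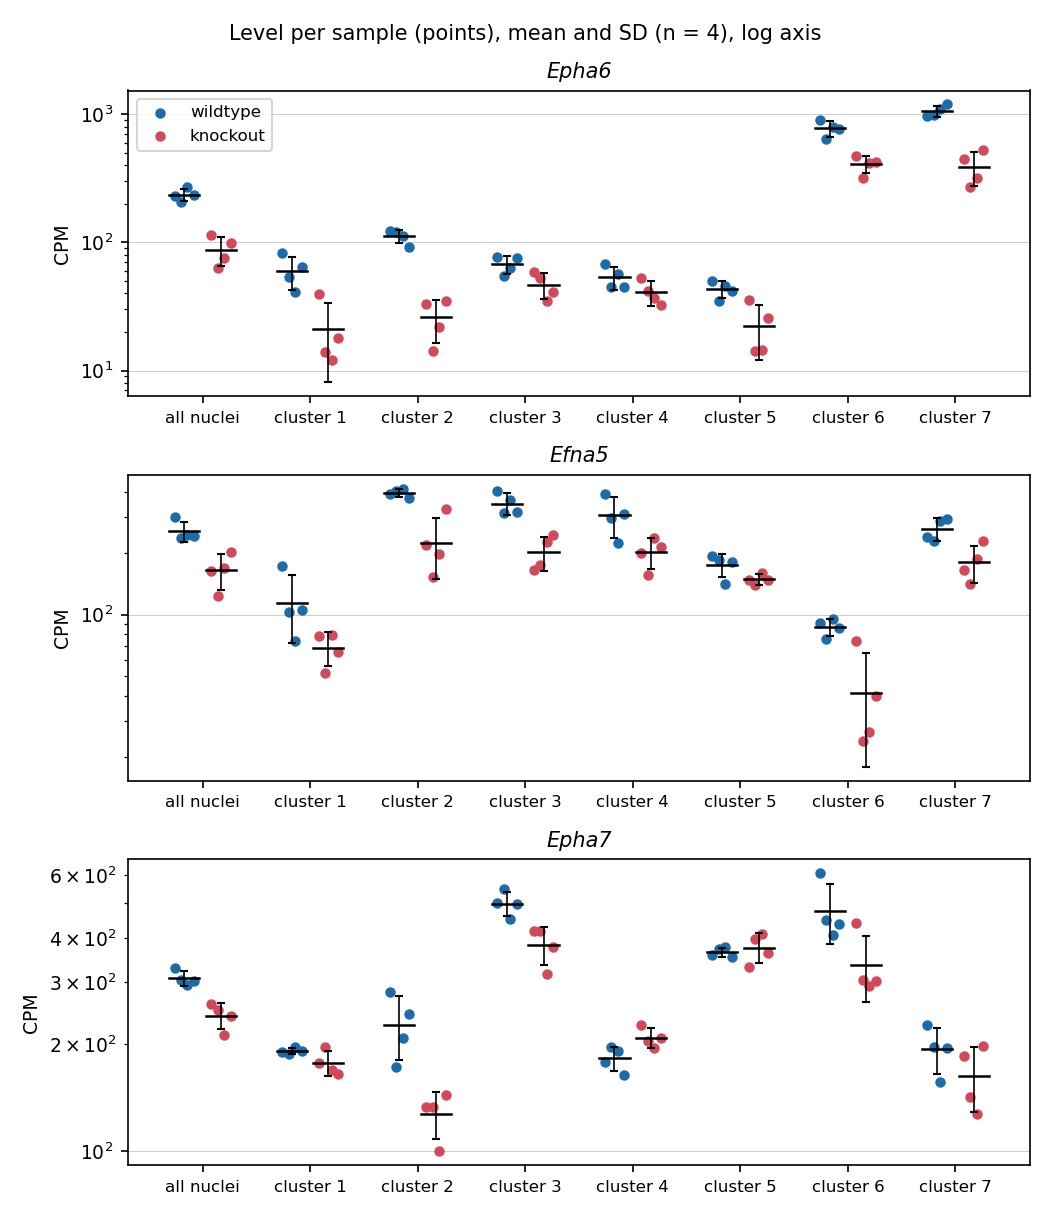
Levels (CPM, log axis) of Epha6, Efna5 and Epha7 over all nuclei and in clusters 1 to 7; points are samples (blue wildtype, red knockout), with the mean and SD of 4 samples. Knockout samples of Epha6 lie below all wildtype samples in all nuclei and in clusters 1, 2, 6 and 7, and those of Efna5 in all nuclei and in clusters 2, 3, 6 and 7.

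Markers of the cell types moved with genotype in cluster 2. The sum of the same 4 upper-layer genes was 756 to 1157 CPM in wildtype and 495 to 621 in the knockout. Rorb, which is highest in this cluster, made up most of it, at 714 CPM ± 164 in wildtype and 425 ± 30.1 in the knockout. Cux1 went from 129 ± 41.1 to 41.7 ± 13.5 CPM, Cux2 from 124 ± 28.1 to 64.1 ± 12.6 and Pou3f1 from 64.2 ± 11.1 to 38.0 ± 8.30. The 5 subcerebral markers summed to 6656 to 8050 and 9046 to 11032 CPM, and the 5 corticothalamic markers to 2015 to 2583 and 3282 to 3368. For 7 of 8 interneuron markers the sums were 57.0 to 67.9 and 22.7 to 51.4. The 4 oligodendrocyte precursor markers summed to 3.20 to 6.65 and 1.31 to 2.48 CPM. The part of these shifts in the members' differences was not tested.

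In the corticothalamic-like cluster 3, 2 of 10 members were called, both lower (background 3.36%, of which 1.48% higher and 1.88% lower). Efna5 went from 405, 314, 365 and 318 CPM in wildtype to 166, 175, 226 and 245 in the knockout, with no overlap and a log2 fold change of -0.76 ± 0.12 (edgeR adjusted p = 0.00278). Epha7, which is at its wildtype peak there, went from 500, 550, 452 and 497 to 418, 417, 317 and 376 CPM. Its groups were also apart, with a log2 fold change of -0.36 ± 0.09 (edgeR adjusted p = 0.0324), but the call was lost in 5 of the 8 fits without a sample, wildtype replicates 1, 2 and 4 and knockout replicates 3 and 4, with adjusted p up to 0.101.

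Epha4 in cluster 3 lay at 257, 293, 260 and 260 CPM in wildtype and 330, 314, 320 and 290 in the knockout, with wildtype replicate 2 inside the knockout range. Its log2 fold change was 0.25 ± 0.07 (edgeR adjusted p = 0.0507, and 0.0232 with the replicate block). Epha6, at 67.8 ± 10.7 and 46.9 ± 10.9 CPM, changed by -0.51 ± 0.14 on the log2 scale, which passed with the block (edgeR adjusted p = 0.0348) and not without it (0.0790). Ephb1, whose peak is this cluster, lay at 1174 to 1293 CPM in wildtype and 899 to 1119 in the knockout. Its groups were apart, but the log2 fold change of -0.20 ± 0.07 did not pass in edgeR (adjusted p = 0.197). The 5 subcerebral markers summed to 6289 to 6821 CPM in wildtype and 6833 to 7823 in the knockout in this cluster, although edgeR called 0 of the 5 there. The 5 Cajal-Retzius cell markers summed to 29.5 to 38.5 and 41.5 to 51.7 CPM, with Reln called in edgeR. The 4 oligodendrocyte precursor markers summed to 3.44 to 7.07 and 0.969 to 3.02 CPM. The part of these shifts in the members' differences was not tested.

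In the upper-layer-like cluster 1, 2 of 10 members were called, both lower (background 4.84%, of which 2.54% higher and 2.30% lower). Epha6 went from 82.0, 53.5, 41.1 and 63.9 CPM to 39.9, 13.9, 12 and 18.1, with knockout replicate 1 close under the lowest wildtype sample and a log2 fold change of -1.62 ± 0.28 (edgeR adjusted p = 0.00336). Efnb3 went from 41.9, 33.5, 31.4 and 30.4 to 22.7, 24.4, 25.5 and 21.9 CPM. The groups were apart, with a log2 fold change of -0.47 ± 0.11 (edgeR adjusted p = 0.0217), and the adjusted p was 0.0594 without knockout replicate 2 and 0.0518 without knockout replicate 4.

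With the replicate block, edgeR called 3 further members in cluster 1. Epha3 had a log2 fold change of 0.25 ± 0.07 (adjusted p = 0.0718, and 0.0239 with the block), Epha5 of 0.28 ± 0.09 (0.0986 and 0.0358) and Efna5 of -0.69 ± 0.20 (0.0668 and 0.0186). The upper-layer sum of 4 genes was 1543 to 1895 CPM in wildtype and 886 to 1144 in the knockout in this cluster. The 5 subcerebral markers summed to 2084 to 2581 and 3299 to 4610, and the 5 corticothalamic markers to 414 to 537 and 584 to 806. For 7 of 8 interneuron markers the sums were 57.4 to 86.1 and 24.4 to 45.5 CPM, with Gad2, Dlx2, Dlx5 and Dlx6os1 called in edgeR. The 4 oligodendrocyte precursor markers summed to 3.49 to 4.40 and 0.773 to 1.93 CPM. The part of these shifts in the members' differences was not tested.

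In the apical progenitor-like cluster 4, 1 of 10 members was called, Epha5 (background 4.29%, of which 1.17% higher and 3.12% lower), which went from 1409, 1693, 1721 and 1627 CPM in wildtype to 2108, 2052, 1880 and 1873 in the knockout. The groups were apart, with a log2 fold change of 0.32 ± 0.08 (edgeR adjusted p = 0.0438). The call was lost with the replicate block (0.0860), with library totals in place of TMM factors (0.0533) and in 7 of the 8 fits without a sample (up to 0.126, without wildtype replicate 1). Efna5 in cluster 4 lay at 393, 298, 225 and 312 CPM in wildtype and 200, 156, 238 and 215 in the knockout, with overlap, and its log2 fold change of -0.58 ± 0.15 had an edgeR adjusted p of 0.0570. The 11 apical progenitor markers in the table summed to 2561 to 3097 CPM in wildtype and 2122 to 2305 in the knockout there. For 3 of 4 subplate markers the sums were 37.8 to 45.8 and 47.6 to 54.0. The 4 oligodendrocyte precursor markers summed to 9.80 to 11.8 and 1.65 to 3.07 CPM, with Olig1 and Olig2 called in edgeR. For 3 of 5 microglia markers the sums were 6.05 to 10.1 and 2.31 to 4.19 CPM. The mean sum of the 5 endothelial or mural markers was 16.3 and 10.8 CPM, also with no overlap. The part of these shifts was not tested.

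In cluster 5, edgeR called 0 of 10 members (background 1.77%, of which 0.868% higher and 0.906% lower), and DESeq2 called 1, Epha6. An unadjusted edgeR p under 0.05 was reached by 6 members, and the share of all genes at that threshold was not computed. Epha6 lay there at 50.3, 35.2, 45.5 and 42.0 CPM in wildtype and 35.4, 14.1, 14.4 and 25.7 in the knockout, with knockout replicate 1 just above the lowest wildtype sample. Its log2 fold change of -0.99 ± 0.24 had an edgeR adjusted p of 0.0579, and of 0.0170 with the replicate block (0.00276 to 0.206 over the 13 alternatives). In this cluster the 5 subcerebral markers summed to 1579 to 1701 CPM in wildtype and 2004 to 2807 in the knockout. The 5 corticothalamic markers summed to 1488 to 1602 and 1809 to 2195, and the 5 Cajal-Retzius cell markers to 57.6 to 94.5 and 115 to 138. The 4 upper-layer genes summed to 1078 to 1369 and 794 to 1000. The 5 striatal or subpallial markers summed to 3598 to 4282 and 3082 to 3559 CPM, with Foxp1 called in edgeR. The 4 oligodendrocyte precursor markers summed to 1.67 to 10.8 and 0.942 to 1.65 CPM. The part of these shifts was not tested.

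In clusters 6 and 7, where Epha6 is highest in wildtype, edgeR called 1 of 10 members, Epha6, in each (background 0.779% in cluster 6, of which 0.352% higher and 0.428% lower, and 1.03% in cluster 7, of which 0.578% higher and 0.455% lower). In cluster 7 it went from 965, 994, 1093 and 1192 CPM to 451, 270, 319 and 521. Every knockout sample was below every wildtype sample, with a log2 fold change of -1.42 ± 0.15 (edgeR adjusted p = 8.42e-05). In cluster 6 it went from 896, 637, 797 and 769 to 468, 320, 417 and 425 CPM, also without overlap, with a log2 fold change of -0.91 ± 0.13 (edgeR adjusted p = 0.00292). The samples of cluster 7 were all above those of cluster 6 in wildtype, whereas in the knockout the 2 clusters overlapped, at 390 CPM ± 116 and 408 ± 62.7.

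Efna5 had no overlap between the genotypes in clusters 6 and 7 either. It lay at 90.6, 75.7, 95.4 and 86.3 CPM in wildtype and 74.6, 24.0, 26.5 and 39.9 in the knockout in cluster 6, where knockout replicate 1 stayed close to wildtype. The log2 fold change of -1.07 ± 0.26 had an edgeR adjusted p of 0.108, and of 0.00958 with the replicate block. In cluster 7 it was 230 to 295 CPM in wildtype and 141 to 229 in the knockout, with a log2 fold change of -0.52 ± 0.13 (edgeR adjusted p = 0.0799, and 4.46e-04 with the block). For Epha7 in cluster 6 the log2 fold change was -0.49 ± 0.15 (edgeR adjusted p = 0.234, and 0.00136 with the block), with knockout replicate 1 at 440 CPM and the other 3 knockout samples at 293 to 303. The 5 subcerebral markers summed to 1928 to 1998 CPM in wildtype and 2427 to 2829 in the knockout in cluster 6, and to 2303 to 2574 and 2600 to 3528 in cluster 7. In both clusters Sox5 was the only 1 of the 5 called in edgeR. It went from 1071 ± 27.7 to 1642 ± 161 CPM in cluster 6 and from 1342 ± 84.0 to 2029 ± 381 in cluster 7, where Bcl11b lay at 629 ± 44.1 and 624 ± 29.6. The 4 oligodendrocyte precursor markers summed to 3.03 to 6.16 CPM in wildtype and 0.959 to 2.89 in the knockout in cluster 7. The part of these shifts was not tested.

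**Figure D4:**
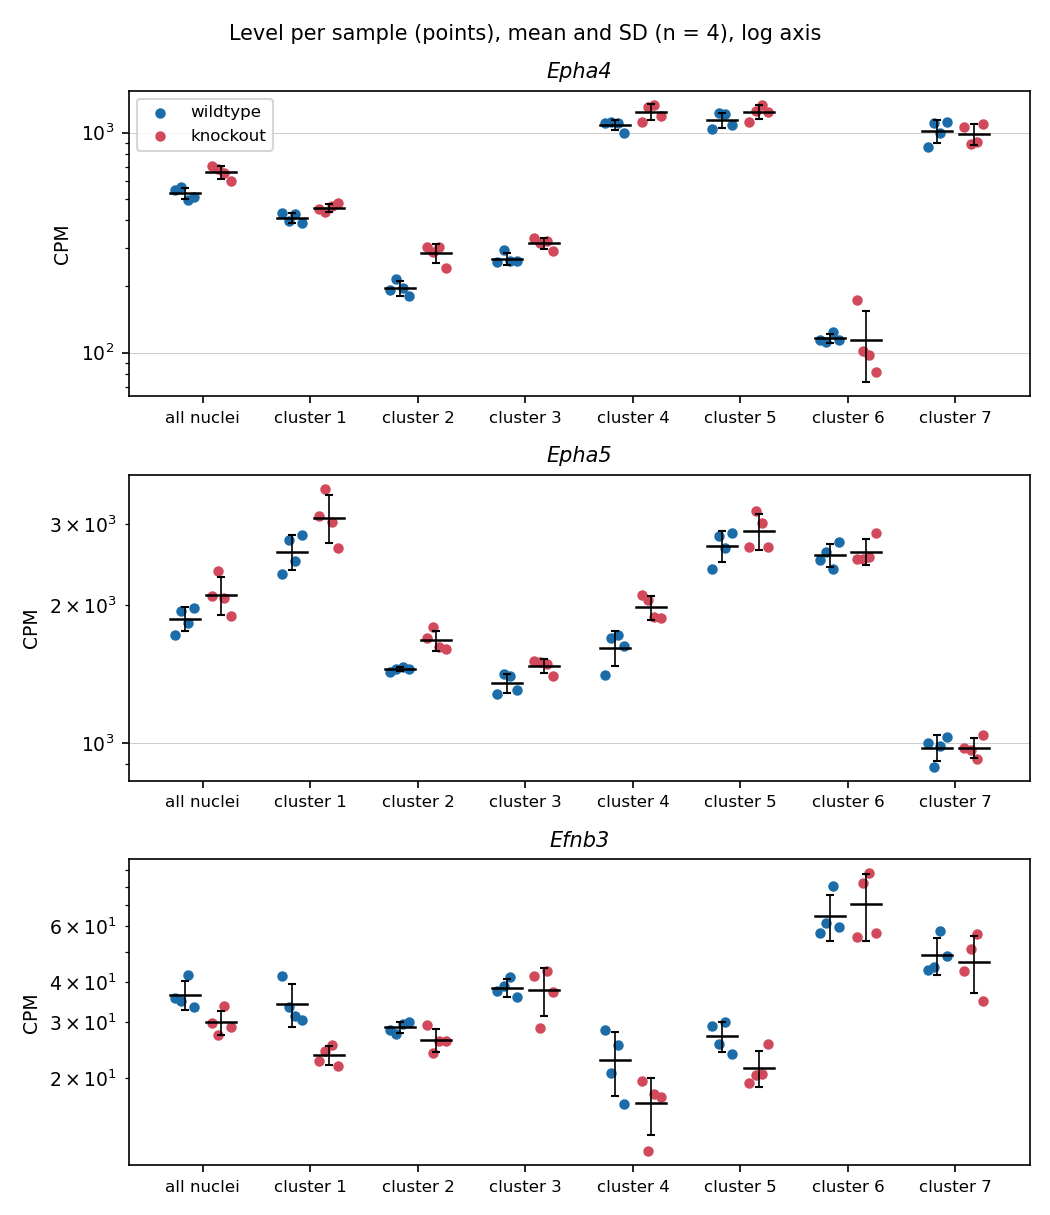
Levels (CPM, log axis) of Epha4, Epha5 and Efnb3 over all nuclei and in clusters 1 to 7; points are samples (blue wildtype, red knockout), with the mean and SD of 4 samples. Knockout samples of Epha4 lie above all wildtype samples in all nuclei and in clusters 1 and 2, those of Epha5 in clusters 2 and 4, and those of Efnb3 lie below in cluster 1.

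Across the clusters, Epha6 and Efna5 had log2 fold changes under 0 in 7 of 7, from -2.14 to -0.35 and from -1.07 to -0.22. Epha5 and Ephb2 lay above 0 in 7 of 7, with Ephb2 between 0.02 and 0.19 and never called (lowest adjusted p = 0.365 in edgeR). Epha4 was above 0 in 6 of 7 and Epha7 below 0 in 5 of 7. The 7 clusters come from the same 8 samples, so these signs are not independent of each other. The share of all genes with the same sign in 7 of 7 clusters was not computed. Epha3, Ephb1, Ephb2 and Efnb2 were called in no comparison of the edgeR fit reported here, in which the lowest adjusted p of each in any cluster was 0.0718, 0.197, 0.365 and 0.0547. Among the alternatives, Epha3 passed in cluster 1 with the block, with DESeq2 (adjusted p = 0.0480) and without knockout replicate 4 (0.0190). In all, 46 of the 70 cluster comparisons were called neither in the fit reported here nor in any alternative. Their log2 fold changes lay between -0.45 and 0.34, and 11 had an unadjusted p under 0.05. The share of all genes under that unadjusted p was not computed.

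A call in a cluster does not show that the genotypes differ more there than elsewhere, so this was tested directly for the 12 calls. These 12 were picked by their calls in the same samples, which favours a large difference in the named cluster. For each, the log2 level in the cluster minus its mean over the other 6 clusters was compared between the genotypes by an exact two-sided permutation test. None of the 12 passed after Benjamini-Hochberg adjustment. With 4 against 4 samples, a single difference could not pass in 12 tests however large it was. The outcome therefore does not show that the genotype effects are alike between clusters. The smallest raw p that the design allows, 0.0286 (adjusted p = 0.0857), was reached for Epha6 in cluster 2 (difference -1.15), Epha7 in cluster 2 (-0.64), Epha4 in cluster 2 (0.43) and Epha5 in cluster 4 (0.18). For Epha6 in clusters 6 and 7 the differences were 0.26 (exact permutation p = 0.114) and -0.39 (0.0857). For Efna5 in clusters 2 and 3 the differences were -0.20 (exact permutation p = 0.314) and -0.11 (0.657).

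The deposited cell cycle angle of each nucleus allowed the members to be followed within the apical progenitor-like cluster 4. Nuclei at G1/G0 angles were compared with nuclei at G2/M angles of the same sample, over 8 samples, by exact sign flips. Epha3, Epha7 and Ephb1 were higher at G1/G0 angles in 8 of 8 samples. Only the 10 members were compared by angle. The share of all genes that differ by angle was not computed, so these results do not single out the family. Epha3 averaged 908 CPM ± 213 (SD, n = 8) at G1/G0 and 517 ± 168 at G2/M angles (log2 difference 0.84 ± 0.14), Epha7 257 ± 44.8 and 153 ± 26.8 (0.74 ± 0.14), and Ephb1 607 ± 125 and 315 ± 58.3 (0.94 ± 0.44). Each had the smallest p the test allows, 0.00781, and an adjusted p of 0.0260 in the exact permutation test over the 10 members. With 7 samples the smallest raw p is larger, and the adjusted p of all 3 was 0.0521 in 7 of the 8 tests that left out a sample.

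**Figure D5:**
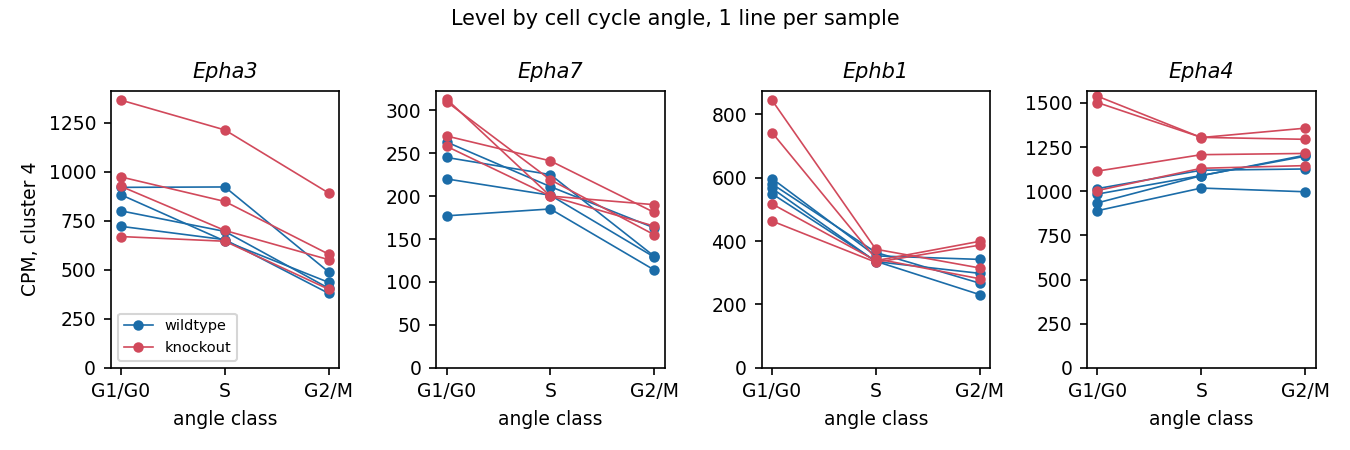
Level (CPM, y axis from 0) of Epha3, Epha7, Ephb1 and Epha4 in cluster 4 nuclei at G1/G0, S and G2/M angles (x axis), with 1 line per sample (blue wildtype, red knockout). The lines of Epha3, Epha7 and Ephb1 end lower at G2/M than at G1/G0 angles in 8 of 8 samples, and those of Epha4 have no common direction.

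Ephb2 was lower at G1/G0 angles in 7 of 8 samples (log2 difference -0.29 ± 0.26, exact permutation adjusted p = 0.0586). Epha4 (-0.11 ± 0.21), Epha5 (-0.09 ± 0.19), Efna5 (-0.23 ± 0.51) and Efnb2 (0.03 ± 0.25) had differences smaller than their SD over samples. Epha6 and Efnb3 had as few as 3 and 2 UMIs in a sample's G1/G0 class, so their differences of -0.33 ± 0.80 and 0.47 ± 0.65 were not resolved at this depth. The G1/G0 class held 67 to 259 nuclei per sample. Whether any member entered the computation of the angle is not given in the sources used here.

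Of 12 other Eph and ephrin genes, 11 were in the table, with wildtype means over all nuclei from 0.767 CPM (Epha1) to 64.5 (Efnb1). In 53 tests over all sets, edgeR called 0, 9 had an unadjusted p under 0.05, and DESeq2 called 0. The share of all genes at that unadjusted p was not computed, here or for the partners below. Of 36 signalling partners of the family, 35 were in the table, and 12 were called in at least 1 set, with 23 calls. Over all nuclei, 4 of the 35 were called, 1 higher and 3 lower (5.26% of all genes), and in cluster 2, 7 of 32, 2 higher and 5 lower (9.11% of all genes). In cluster 1, 6 of 32 were called (4.84% of all genes), in cluster 4, 3 of 32 (4.29%), and 1 each of 34, 30 and 31 in clusters 3 (3.36%), 5 (1.77%) and 7 (1.03%). Cluster 6 had 0 of 30 in edgeR (0.779%), with 3 at an unadjusted p under 0.05. Their median log2 fold change was 0.02 over all nuclei and -0.01 in cluster 2, beside 0.00 for all genes in both.

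Among the partners, the chimaerins, which switch off Rac downstream of Eph receptors, were called in different sets. Chn2 rose over all nuclei, from 179 CPM ± 12 to 216 ± 5.08 (log2 fold change 0.28 ± 0.05, edgeR adjusted p = 0.0132), and in clusters 1 (0.49 ± 0.07), 4 (0.41 ± 0.08) and 7 (0.91 ± 0.10). Chn1 fell in cluster 2, from 245 to 279 CPM in wildtype to 201 to 221 in the knockout (-0.34 ± 0.06, edgeR adjusted p = 0.00420). Each of these calls held under all 13 alternatives.

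Among the exchange factors that activate small GTPases, Vav3 fell over all nuclei from 58.3 ± 4.74 to 30.1 ± 10.9 CPM (-0.95 ± 0.21, edgeR adjusted p = 0.0323) and in clusters 1 (-0.82 ± 0.12), 2 (-1.22 ± 0.26), 3 (-0.91 ± 0.21) and 5 (-0.74 ± 0.15). Of these, the calls in clusters 1 and 2 held under all 13 alternatives, and that over all nuclei under 6. Tiam1 rose in cluster 4 from 158 ± 11.0 to 208 ± 5.91 CPM (0.42 ± 0.07, edgeR adjusted p = 0.00412). Kalrn rose there as well (0.28 ± 0.07, edgeR adjusted p = 0.0335, and 0.0579 with the replicate block), Itsn1 rose in cluster 2 (0.74 ± 0.19, 0.0263) and Arhgef15 fell over all nuclei (-0.57 ± 0.14, 0.0480).

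Of the adaptors, Anks1b fell in clusters 1 and 2, from 2523 ± 126 to 1897 ± 191 CPM (-0.38 ± 0.07, edgeR adjusted p = 0.00735) and from 2604 ± 125 to 1984 ± 124 (-0.39 ± 0.07, 0.00260), under all 13 alternatives. Grip2, which binds B-class ephrins, fell over all nuclei (-0.66 ± 0.13, edgeR adjusted p = 0.0192) and in clusters 1 (-0.92 ± 0.24, 0.0410) and 2 (-0.55 ± 0.15, 0.0286). Rgs3, which links B-class ephrins to G protein signalling, fell in cluster 1 (-0.90 ± 0.20, edgeR adjusted p = 0.0153). Sipa1l1, a Rap GTPase-activating protein, rose in clusters 1 (0.24 ± 0.06, edgeR adjusted p = 0.0482) and 2 (0.29 ± 0.07, 0.0212). The kinase Lmtk2 fell in cluster 2 (-0.23 ± 0.07, edgeR adjusted p = 0.0440, and 0.0670 with the block). The calls of Kalrn, Itsn1, Arhgef15, Grip2, Rgs3, Sipa1l1 and Lmtk2 were each lost in at least 1 alternative.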

How the data were processed

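UMI counts per gene and nucleus are used as the authors deposited them, whole numbers with no normalisation, per the file headers. The submitters' processing notes name kallisto, bustools and mm10, and tool versions and the strand setting are not given in the sources used here. The authors' tables also hold cluster numbers, a deposited cell cycle angle in radians and deposited doublet scores. No hybrid doublet score exceeds 0.5, and no doublet caller was run here. All nuclei were kept. Gene positions are GRCm38 (GENCODE M21, matched by Ensembl ID). Distances to neighbours come from the deposited positions, which start at the same base in 352 of 14162 matched genes and have the same length in 13879. Promoters are from RefSeq. How the counting split reads between related Eph genes was not checked.

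Each sample's counts were summed, over all its nuclei and by cluster, and fitted over the whole table with edgeR 4.0.16 in R 4.3.3 (TMM, filterByExpr, quasi-likelihood test on genotype, Benjamini-Hochberg over all genes tested, threshold 0.05). The 13 alternatives were DESeq2 1.42.0, library totals, no filter, the replicate block, an Xist covariate and leaving out each of 8 samples. The Xist covariate was whether Xist was present over all nuclei of a sample, and not its level. Single values were tested by exact permutation, two-sided, on log2(CPM + 1). G1/G0 angles are above 1.75 π or under 0.25 π, and G2/M angles lie from π to 1.75 π. Fits were tested on simulated data. Members and gene lists were chosen with earlier results of these data known. All members were named, with genes of both further lists called in any fit and, for each member, the 2 genes with the most similar wildtype profile among genes of at least 10 CPM; those of Ephb2 are not reported here.

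Same-numbered samples deviated together over all nuclei (correlations across genes 0.398, 0.185, 0.192 and 0.179, each above 0.1). The edgeR fit reported here used genotype only, and pairing by replicate number entered only in alternatives such as the block. Of the 12 differently numbered pairs, 3 were also above 0.1, namely wildtype 3 with knockout 4 (0.287), wildtype 2 with knockout 3 (0.167) and wildtype 1 with knockout 2 (0.113). Within clusters, all 4 same-numbered pairs were above 0.1 in cluster 6 only. All 8 samples carry 1 library date. The counts of the targeted gene were not analysed here.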

Additional observations from a re-analysis of the deposited data

Results flagged for a closer look

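In 160 groups of 4 samples (10 members, 8 sets, 2 genotypes), 4 had a highest sample far from the other 3, and chance gives about 1 in 20. Epha4 in cluster 3 lay at 293 CPM in wildtype replicate 2, with the nearest sample at 260. Epha5 in cluster 6 lay at 2869 CPM in knockout replicate 4, with the nearest at 2552. Epha7 in cluster 6 lay at 440 CPM in knockout replicate 1, with the nearest at 303. Efna5 over all nuclei lay at 301 CPM in wildtype replicate 1, with the nearest at 246.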

How the results depend on the processing

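The calls of Epha6 (all nuclei and clusters 1, 2, 6 and 7), Epha4 and Epha7 (all nuclei and cluster 2) and Efna5 (clusters 2 and 3) held under all 13 alternatives. With the replicate block, the genes called numbered 1344 over all nuclei and 652, 253 and 255 in clusters 3, 6 and 7, and DESeq2 called 1215 over all nuclei. Without a sample these counts were 263 to 994 over all nuclei, 335 to 647, 738 to 1074, 192 to 438, 315 to 539, 101 to 189, 51 to 148 and 63 to 142 in clusters 1 to 7. Over all nuclei, the count fell by more than 1.5 times without knockout replicate 3 (263), knockout replicate 2 (286) and wildtype replicate 4 (362).

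With the replicate block, 5, 4, 0, 1, 3 and 2 members were called in clusters 1, 3, 4, 5, 6 and 7, and other calls of members did not change, except that Efnb3 passed over all nuclei. DESeq2 called 4, 2, 1, 2 and 2 in clusters 3 to 7. With the Xist covariate, 6, 3, 2, 1, 2 and 2 were called in clusters 2 to 7, and with no filter 1 in cluster 5. Without a sample, 3 to 4 members were called over all nuclei and 1 to 3, 4 to 5, 1 to 3, 0 to 2, 0 to 1, 1 to 3 and 1 to 2 in clusters 1 to 7. The cause of these differences was not tested.

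Some values near 0 changed sign. Efnb2 over all nuclei was at 0.00 with the block and with DESeq2, and from -0.07 to 0.05 without a sample. The difference of Efna5 in cluster 3 from the other clusters was 0.04 without knockout replicate 1, and from -0.17 to 0.04 with each sample left out in turn. By cell cycle angle, Efnb2 was at -0.13 against S angles and from -0.02 (without wildtype replicate 3) to 0.08 (without knockout replicate 1) when a sample was left out. Against S angles 5 members passed, and without a sample 0 to 4, with no share over all genes computed for comparison. Differences between clusters gave 0 calls in all alternatives, but 4 against 3 samples cannot go below p = 0.0571 and 4 paired samples not below 0.125 in these exact permutation tests. Thinning each nucleus to 1400 UMIs moved 9 of the levels by more than 1 SD.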
